A study of Mus musculus with 11 samples.

Results

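The tumor necrosis factor (TNF) superfamily was represented by 27 of the 754 genes that the NanoString Myeloid Innate Immunity panel measured in the skin of 11 transplanted mice. Members were taken by symbol, as names beginning with Tnf, names of Traf followed by a digit, Birc2 and Birc3, and Lta, Ltb, Cd27, Cd40, Cd40lg, Cd70 and Fas. Fasl and Ltbr, which the same rule sought, are not analysed here because no row carried their symbols. The 27 genes comprised 8 ligands, 11 receptors, 5 adaptors and inhibitors of apoptosis, and 3 genes named for their induction by TNF. Counts were compared between 3 syngeneic, 3 allo-WT and 5 allo-MCd mice, all of them transplanted. The aim was to see how allogeneic against syngeneic transplantation and the lack of host mast cells bear on the skin in chronic graft-versus-host disease (cGVHD).

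All recipients were female, 8 to 10 weeks old per the study's methods, and received 850 cGy of radiation followed by 5000000 bone marrow cells and 2000000 splenocytes. Syngeneic and allo-WT recipients were C57BL/6j mice. The allo-MCd recipients were B6.Cg-KitW-sh/HNihrJaeBsmGlliJ mice, which lack mast cells owing to their W-sh allele at Kit, which encodes the stem cell factor receptor. That allele is in the germline, so it is present in every host cell and not in mast cells alone. Both allogeneic groups were given LP/J cells. For the syngeneic group the methods give C57BL/6j donors and the sample labels give LP/J donors, and the group is named here as in the methods. Skin of the nape was taken at week 7, and 100 ng of total RNA per mouse was hybridized to color-coded probes that are counted without amplification. The labels do not say which transplant experiment each mouse came from.

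Ligands of the TNF superfamily are trimeric proteins, held on the cell surface or shed from it, that cluster their receptors on neighbouring cells. Receptors with a death domain, such as Fas and Tnfrsf1a, can recruit Fadd and caspases, whereas Cd40, Cd27, Tnfrsf1b, Tnfrsf4 and Tnfrsf9 bind TRAF adaptors and inhibitor of apoptosis proteins and activate the transcription factor NF-kappaB. In inflamed skin these ligands come from T cells, macrophages, keratinocytes and mast cells, and pairs such as Cd40 and Cd40lg, or Cd27 and Cd70, serve as co-stimulators between T cells and antigen-presenting cells.

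Since several genes of the family are known targets of NF-kappaB, the promoters that hold its consensus motif are shown. RefSeq (GRCm38.p6) gave 24 promoters for 21 of the 27 members, and none was found in that table for Cd40, Cd40lg, Cd70, Tnfaip8, Tnfsf4 and Tnfsf9. The kappaB motif of 10 bases, searched on both strands of the 250 bases before each start, was present in 4 of the 24 promoters (16.7%), against 7.25% of 32851 promoters of the same length. These were the promoters of Ltb and Tnfrsf8, and 1 of the 2 promoters each of Tnfaip3 and Tnfrsf9. They are printed 5′ to 3′ along the gene's strand, with each match in capitals. The match in Ltb began 87 bases before the start, the overlapping matches in Tnfrsf8 began 168 and 167 bases before it, those in Tnfrsf9 43 and 42 bases before it, and the separate matches in Tnfaip3 125 and 12 bases before it. A match is a description of the letters and not of binding.
Ltb (GRCm38.p6, chr17:35194257-35194506, + strand): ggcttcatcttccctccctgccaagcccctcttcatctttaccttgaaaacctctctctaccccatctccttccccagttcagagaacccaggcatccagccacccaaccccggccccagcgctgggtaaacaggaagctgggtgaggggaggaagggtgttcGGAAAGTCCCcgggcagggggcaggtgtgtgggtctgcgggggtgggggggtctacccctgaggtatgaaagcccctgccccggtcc
Tnfrsf9 (GRCm38.p6, chr4:150927749-150927998, + strand): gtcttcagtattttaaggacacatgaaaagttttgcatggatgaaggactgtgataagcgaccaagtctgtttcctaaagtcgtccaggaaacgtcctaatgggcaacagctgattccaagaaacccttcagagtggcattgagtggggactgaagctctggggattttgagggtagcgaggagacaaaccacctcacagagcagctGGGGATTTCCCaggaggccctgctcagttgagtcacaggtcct
Tnfrsf8 (GRCm38.p6, chr4:145315165-145315414, - strand): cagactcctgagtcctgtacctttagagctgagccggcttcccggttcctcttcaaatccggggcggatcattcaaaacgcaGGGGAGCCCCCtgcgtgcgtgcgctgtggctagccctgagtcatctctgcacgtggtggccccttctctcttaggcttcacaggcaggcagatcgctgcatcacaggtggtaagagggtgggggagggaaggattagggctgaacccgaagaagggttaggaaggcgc
Tnfaip3 (GRCm38.p6, chr10:19015411-19015660, - strand): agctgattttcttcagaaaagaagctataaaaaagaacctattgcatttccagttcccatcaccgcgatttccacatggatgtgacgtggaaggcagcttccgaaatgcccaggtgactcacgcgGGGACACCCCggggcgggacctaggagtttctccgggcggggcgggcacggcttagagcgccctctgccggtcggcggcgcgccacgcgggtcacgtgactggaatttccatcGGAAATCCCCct

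Values are normalized counts, which the authors scaled per mouse and which are given below in the order of the mouse numbers, and recovered totals before scaling lay between 831632 and 1460260 counts per mouse. The background, the mean of the negative control probes plus 2 SD, was at normalized values between 14.3 and 37.5. Of the 27 members, 19 were above it in all 11 mice and 6 (Cd40lg, Cd70, Lta, Tnfrsf8, Tnfrsf9 and Tnfsf4) were above it in fewer than 6 mice. Mouse 1 of the allo-WT group stood apart, with the lowest total, a scaling factor of 2.54 and 3975 counts of the strongest positive control, against 17615 to 33547 in the other mice. Mouse 2 of that group had low collagen (Col1a2 3535 and Col3a1 6974) and the lowest Kit of its group, 11.9, under its background of 15.7. The skin markers Col1a2, Col3a1, Pdgfra, Pdgfrb and Cdh1 were above background in every mouse, and keratins were not analysed here.

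Members were tested with all other genes in limma on log2(value + 1), where calls were made at an adjusted p up to 0.05, and 26 of the 27 were among the 696 genes in the fit because Lta was too low. Every difference below is on this log2 scale with its standard error (SE), and understates the change of low genes. In allo-WT mice 7 members were higher than in syngeneic mice (26.9%, against 28.3% of all genes tested), namely Cd27, Cd40, Ltb, Tnfrsf14, Tnfrsf8, Tnfrsf9 and Tnfsf10. No member was called lower, by limma or by voom on the recovered counts, against 14.9% of all genes, and 1 (Tnfaip8) was lower at an unadjusted p under 0.05 by either. In allo-MCd mice 17 members were lower than in allo-WT mice (65.4%, against 50% of all genes), and none was higher by either tool or at an unadjusted p under 0.05, against 10.9% of all genes. Compared with syngeneic mice, 10 members were lower in allo-MCd mice (38.5%, against 36.9% of all genes), and again none was higher by either tool or at an unadjusted p under 0.05, against 4.60% of all genes. Tnfrsf8 and Tnfrsf9, which are in the counts of 7 and 17, passed the filter on low values only with the allo-WT mice, in which they were high, and without them these counts were 5 and 15. Cd40lg, Cd70 and Tnfsf4 also passed it only with allo-WT mice, and were in none of the counts above. The count of 7 was 4 without syngeneic mouse 1, 2 or 3, and the count of 10 was 5 without syngeneic mouse 3 or allo-MCd mouse 1, 2 or 4 and 6 without allo-MCd mouse 3. The share higher in the allo-WT than the syngeneic mice and the share lower in the allo-MCd than the syngeneic mice were near those of all genes. The median difference of the members was 0.50, -0.89 and -0.65 in the order given, against 0.21, -0.72 and -0.59 over all genes.

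The median gene lay between 401 and 456 in the syngeneic, 465 and 555 in the allo-WT and 240.7 and 356 in the allo-MCd mice, and the part of this shift in the differences was not tested. For this reason most of the called differences and some others are also given under median scaling, in which every mouse is divided to give the same median over the genes tested. This brought the median of all genes from -0.72 to 0.12 for allo-MCd against allo-WT mice, from 0.21 to -0.04 for allo-WT against syngeneic mice and from -0.59 to -0.01 for allo-MCd against syngeneic mice. Under it, 10 members were still called lower in the allo-MCd than the allo-WT mice (38.5%, against 30.3% of all genes), namely Birc3, Cd27, Cd40, Fas, Ltb, Tnf, Tnfaip6, Tnfrsf14, Tnfrsf1b and Tnfrsf9. Another 3 members, Tnfaip8, Tnfrsf12a and Traf2, were called higher (11.5%, against 35.6%). Of the 17 members called on the deposited scale, Birc2, Tnfrsf11a, Tnfsf9 and Traf1 had a difference of the opposite sign. Between allo-WT and syngeneic mice, Cd27, Cd40, Ltb and Tnfrsf9 stayed higher (15.4%, against 24.3%), and Tnfaip8 and Tnfrsf11a were called lower (7.69%, against 27.3%). Between allo-MCd and syngeneic mice only Tnfrsf1b stayed lower under median scaling (3.85%, against 13.5%) and only Tnfrsf12a was called higher (3.85%, against 13.9%).

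**Figure D1:**
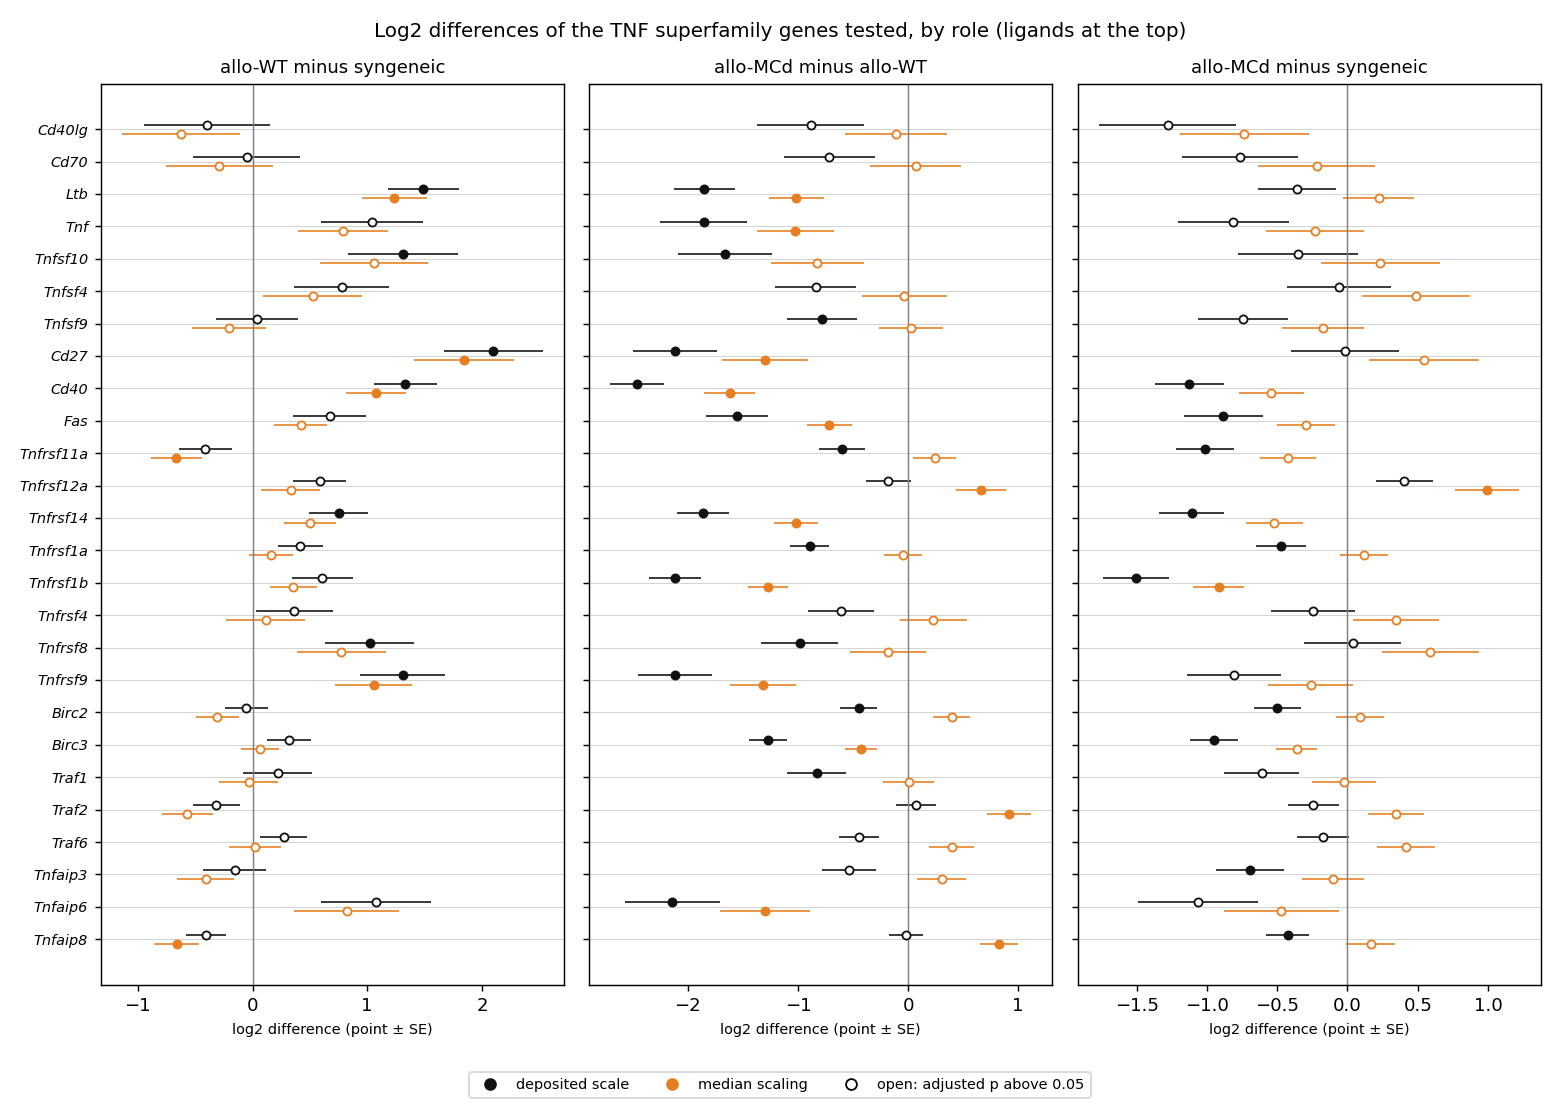
Log2 difference of each of the 26 members tested, with its SE, in the 3 comparisons, on the deposited scale (black) and under median scaling (orange). Filled points have an adjusted p of at most 0.05. Between allo-MCd and allo-WT mice 17 black points are filled, all below 0, and the orange points lie higher, with 10 filled below 0 and 3 above, and with 4 of the 17 genes on the other side of 0.

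Marker genes of several cell types moved with these differences, and those of the skin itself differed as well. The 5 stroma and epithelium markers named above summed to between 88634 and 182329 in syngeneic, 16569 and 138921 in allo-WT and 39577 and 86602 in allo-MCd mice. Most of each sum came from Col1a2 and Col3a1. Cdh1, the epithelial marker among them, lay between 2216 and 4748 in syngeneic, 3955 and 6371 in allo-WT and 4652 and 5187 in allo-MCd mice. The summed normalized counts of 8 macrophage and monocyte markers lay between 14311 and 17015 in syngeneic, 24217 and 41457 in allo-WT and 4413 and 8229 in allo-MCd mice, without overlap. Those of 8 neutrophil markers lay between 531 and 762, between 3955 and 134198, and between 566 and 1189. S100a8 and S100a9 gave 76492 and 55154 of the highest sum, that of allo-WT mouse 1. Elane and Mpo of the allo-WT mice overlapped those of the syngeneic mice, and the other markers were higher in every allo-WT than every syngeneic mouse. Elane, Mpo and Ly6g were not above background in any allo-MCd mouse. The 5 dendritic cell markers on the panel summed to between 427 and 495, 368 and 515, and 159 and 379. The 7 mast cell markers summed to between 3851 and 9348 in syngeneic, 2397 and 14803 in allo-WT and 139 and 656 in allo-MCd mice. Kit and Ms4a2 were not above background in any allo-MCd mouse, and Kit was also under background in allo-WT mouse 2. Lymphocytes could be followed by 1 marker each. Cd247 of T cells lay between 133 and 166 in syngeneic, 139 and 178 in allo-WT and 39.9 and 113 in allo-MCd mice, and Ms4a1 of B cells was not above background in any syngeneic or allo-MCd mouse. The part of these cells in the differences of the TNF superfamily was not tested, and fewer cells of a type and less RNA per cell cannot be told apart in whole skin.

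Among the 7 ligands tested, Ltb and Tnfsf10 were higher in the allo-WT than the syngeneic mice, and Tnf, Ltb, Tnfsf9 and Tnfsf10 were lower in the allo-MCd than the allo-WT mice. None was called by limma between allo-MCd and syngeneic mice, where Cd40lg and Tnfsf9 were lower at an unadjusted p under 0.05 and Cd40lg was called lower by voom. Ltb and Tnf, and Lta beside them, are neighbours in the genome. Tnf is the founding cytokine of the family and acts through Tnfrsf1a and Tnfrsf1b. Its normalized counts were 71.8, 76.8 and 86.0 in the syngeneic, 251, 180.3 and 93.2 in the allo-WT, and 28.1, 53.8, 31.0, 41.5 and 84.0 in the allo-MCd mice. Each allo-WT mouse was above every syngeneic and allo-MCd mouse, although mouse 3 of that group was close to syngeneic mouse 3, the highest of the others. Tnf was lower in the allo-MCd than the allo-WT mice by a difference of -1.85 ± 0.40 (adjusted p = 0.00155), which was -1.02 ± 0.35 under median scaling, still called, and lost its call under quantile normalization (-0.83, adjusted p = 0.0633). Its differences from syngeneic mice were 1.04 ± 0.44 for allo-WT (adjusted p = 0.0723) and -0.81 ± 0.40 for allo-MCd mice (adjusted p = 0.112), and neither was called, nor under median scaling (0.79 ± 0.39 and -0.23 ± 0.35). The first of these was called without allo-WT mouse 3 (1.44, adjusted p = 0.0187) or allo-MCd mouse 5 (adjusted p = 0.0444) and was 0.73 without allo-WT mouse 1, and the second without allo-MCd mouse 5 (-1.04, adjusted p = 0.0330), with an adjusted p up to 0.246 over the other left-out mice.

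Ltb encodes lymphotoxin beta, the membrane partner of lymphotoxin alpha in lymphoid tissue formation, and its promoter above held 1 kappaB match. The 11 mice gave 56.9, 69.2 and 76.1 in the syngeneic, 167, 183 and 224 in the allo-WT, and 36.5, 44.5, 46.5, 71.0 and 70.2 in the allo-MCd mice. All allo-WT mice were far above the other 8, which overlapped with each other. The difference was 1.49 ± 0.31 between allo-WT and syngeneic mice (adjusted p = 0.00284) and -1.85 ± 0.28 between allo-MCd and allo-WT mice (adjusted p = 1.26e-04). Under median scaling these were 1.24 ± 0.28 and -1.02 ± 0.25, both still called. Between allo-MCd and syngeneic mice Ltb gave -0.36 ± 0.28 (adjusted p = 0.304), and 0.22 ± 0.25 under median scaling.

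Tnfsf10 encodes TRAIL, a ligand that can trigger apoptosis. Normalized counts were 141, 185 and 147 in the syngeneic, 210.4, 677 and 414 in the allo-WT, and 69.9, 76.9, 139, 203 and 178 in the allo-MCd mice. The allo-WT mice were the highest and the most spread, and mouse 1 of that group was just above allo-MCd mouse 4, the highest of the others. Tnfsf10 was higher in the allo-WT than the syngeneic mice by 1.31 ± 0.48 (adjusted p = 0.0432) and lower in the allo-MCd than the allo-WT mice by a difference of -1.66 ± 0.43 (adjusted p = 0.00517). Under median scaling neither was called (1.06 ± 0.47 and -0.82 ± 0.42). The first call was also lost when syngeneic mouse 1, 2 or 3, allo-WT mouse 2 or 3 or allo-MCd mouse 3 was left out, with an adjusted p between 0.0530 and 0.159 and a lowest difference of 0.91.

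The other ligands were low. Tnfsf9, the ligand of Tnfrsf9, had a mean of 35.8 ± 5.33 (SD, n = 3) in the syngeneic group, 38.1 ± 12.4 (SD, n = 3) in the allo-WT group and 21.4 ± 5.57 (SD, n = 5) in the allo-MCd group. Its difference of -0.78 ± 0.32 between allo-MCd and allo-WT mice was at the threshold (adjusted p = 0.0497), was 0.029 ± 0.29 under median scaling, and lost its call when any of 9 single mice was left out (all but allo-WT mouse 3 and allo-MCd mouse 5), with an adjusted p up to 0.182. Against syngeneic mice Tnfsf9 gave -0.74 ± 0.32 (adjusted p = 0.0771), or -0.17 ± 0.29 under median scaling. It was called lower there without allo-MCd mouse 5 (-0.86, adjusted p = 0.0472), with an adjusted p up to 0.221 over the other left-out mice. Tnfsf4, the ligand of Tnfrsf4, was between 7.72 and 33.2 and was not called by limma in any comparison with all mice. It reached the tested set through syngeneic mouse 2 and allo-WT mice 1 and 3, and so was not tested when any of these was left out. Its allo-WT values, 25.9 ± 7.07 (SD, n = 3), did not overlap the allo-MCd values. That difference was -0.84 ± 0.37 (-0.036 ± 0.39 under median scaling). It was called without syngeneic mouse 3 (-0.84, adjusted p = 0.0400) and in a fit of these groups alone (adjusted p = 0.0463). Over the other mice whose leaving out kept it in the fit, the adjusted p was up to 0.134.

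Cd40lg is the ligand through which activated T cells engage Cd40, and it was measured at 23.9, 14.1 and 36.4 in the syngeneic, 20.3, 7.17 and 34.5 in the allo-WT, and 9.87, 11.1, 8.26, 4.79 and 12.7 in the allo-MCd mice. Only 2 of these values, 36.4 in syngeneic mouse 3 and 34.5 in allo-WT mouse 3, were above the background of their mouse. All allo-MCd mice were below all syngeneic mice, and the allo-WT mice overlapped both. The difference between allo-MCd and syngeneic mice was -1.28 ± 0.49 (adjusted p = 0.0526), or -0.74 ± 0.46 under median scaling, and it was called when syngeneic mouse 2, allo-WT mouse 2 or 3 or allo-MCd mouse 5 was left out (adjusted p between 0.0225 and 0.0468), and was -0.96 without syngeneic mouse 3. Without allo-WT mouse 2 the difference between allo-MCd and allo-WT mice was called as well (-1.47, adjusted p = 0.0162, against -0.89 ± 0.49 with it, and -0.11 ± 0.46 with it under median scaling), while without allo-WT mouse 3 it was -0.41.

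Cd70, the ligand of Cd27, was measured at 23.9, 22.7 and 12.1 in the syngeneic, 22.8, 20.3 and 12.8 in the allo-WT, and 12.2, 4.64, 9.30, 14.4 and 17.3 in the allo-MCd mice, of which 2 were above background. The 3 groups overlapped, and no comparison was called by limma. Lta encodes lymphotoxin alpha and was measured at 10.5, 23.8 and 13.2 in the syngeneic, 2.54, 17.9 and 7.66 in the allo-WT, and 3.80, 6.49, 6.20, 7.98 and 13.8 in the allo-MCd mice. It was above background in 2 mice and was too low for the fit in limma, and the exact two-sided permutation p was 0.400 between allo-WT and syngeneic, 0.964 between the allogeneic groups and 0.0893 between allo-MCd and syngeneic mice.

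**Figure D2:**
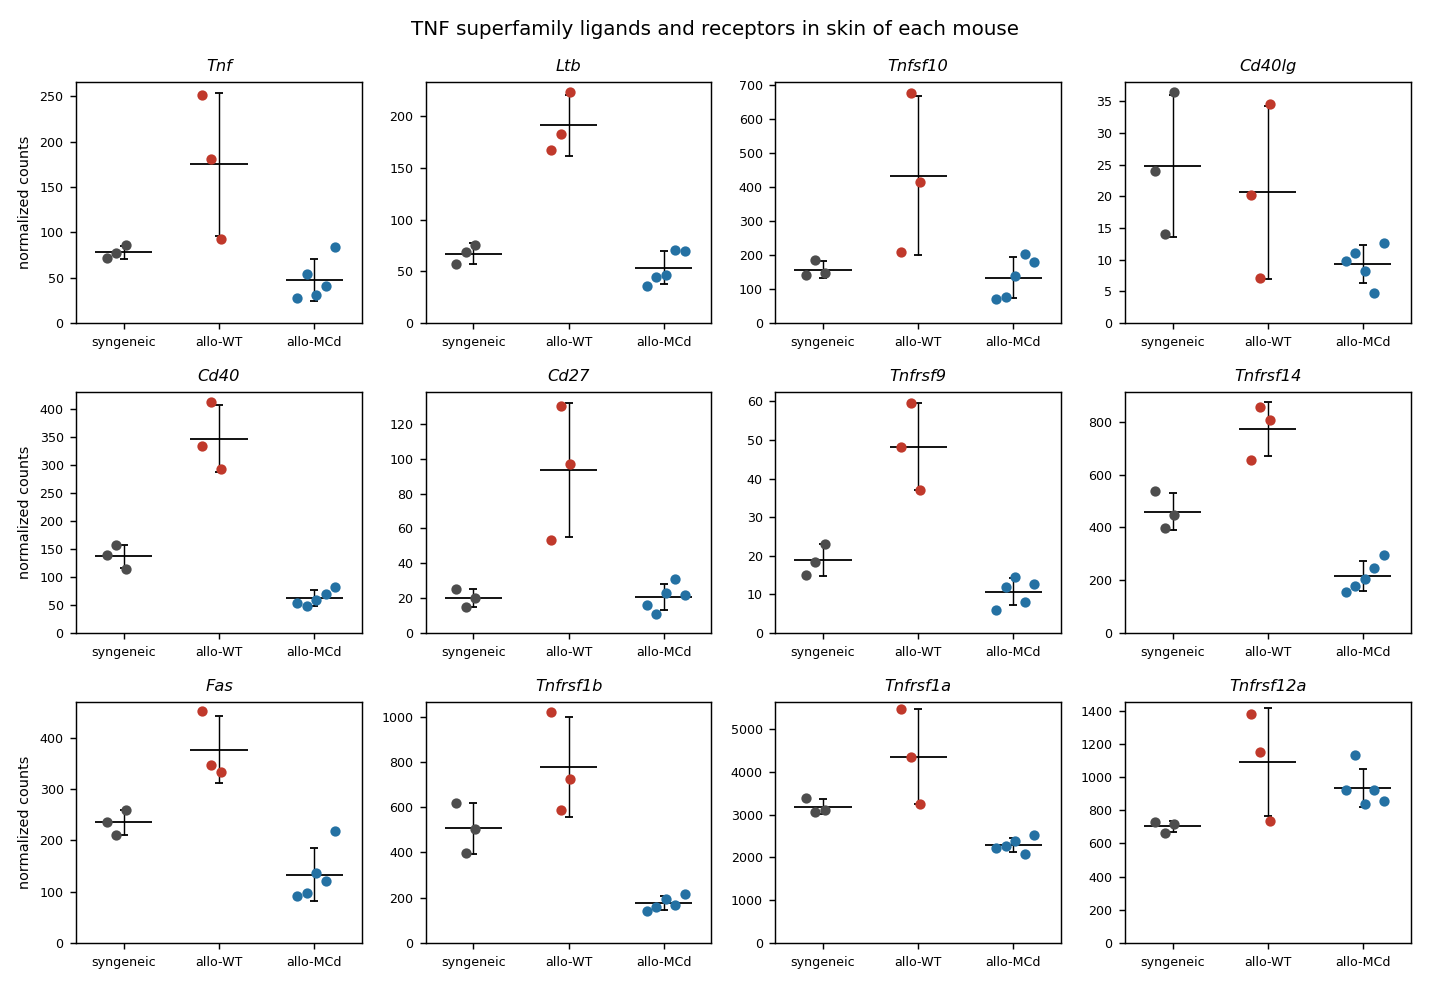
Normalized counts of 4 ligands and 8 receptors in the skin of each mouse (points), with the group mean (line) and SD (bar). The 3 allo-WT mice lie above all other mice for Tnf, Ltb, Tnfsf10, Cd40, Cd27, Tnfrsf9, Tnfrsf14 and Fas, and for Cd40lg the allo-MCd mice lie below all syngeneic mice and the allo-WT mice overlap both other groups.

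Receptors gave most of the calls. Of the 11, 5 were higher in the allo-WT than the syngeneic mice (45.5%, against 28.3% of all genes), 9 were lower in the allo-MCd than the allo-WT mice (81.8%, against 50%) with a median difference of -1.55 over all 11, against -0.72 over all genes, and 6 were lower in the allo-MCd than the syngeneic mice (54.5%, against 36.9%). Without Tnfrsf8 and Tnfrsf9, which passed the filter only with the allo-WT mice, 3 of 9 (33.3%), 7 of 9 (77.8%) and 6 of 9 (66.7%) were called. Under median scaling, of all 11, the 5 became 3 (27.3%, against 24.3%), the 6 became 1 (9.09%, against 13.5%) and the 9 became 6 (54.5%, against 30.3%), with a median of -0.71 against 0.12, while Tnfrsf12a was called higher, which on the deposited scale gave -0.18 ± 0.20. Without Tnfrsf8 and Tnfrsf9 these were 2 of 9 (22.2%, against 24.3%), 1 of 9 (11.1%, against 13.5%) and 5 of 9 (55.6%, against 30.3%).

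Cd40, the receptor by which T cells license B cells, macrophages and dendritic cells, had the largest difference of any member. It was measured at 139, 157 and 115 in the syngeneic, 335, 412 and 294 in the allo-WT, and 53.1, 49.1, 58.9, 70.2 and 82.9 in the allo-MCd mice. The groups did not overlap, with allo-WT mice above syngeneic mice and syngeneic mice above allo-MCd mice. Between allo-MCd and allo-WT mice the difference was -2.46 ± 0.25 (adjusted p = 5.85e-06), and the exact two-sided permutation p was 0.0179, the smallest that 3 mice against 5 allow. Cd40 was higher in the allo-WT than the syngeneic mice by 1.33 ± 0.27 (adjusted p = 0.00259), where the smallest exact p of 3 against 3 is 0.1. It was lower in the allo-MCd than the syngeneic mice by a difference of -1.12 ± 0.25 (adjusted p = 0.00406). Median scaling gave -1.62 ± 0.23, 1.08 ± 0.26 and -0.54 ± 0.23 in the same order, of which the last was not called (limma adjusted p = 0.102).

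Cd27 is a co-stimulatory receptor of T cells and the partner of Cd70. Its normalized counts were 25.4, 15.2 and 19.9 in the syngeneic, 53.2, 130.2 and 97.1 in the allo-WT, and 15.9, 11.1, 22.7, 31.1 and 21.9 in the allo-MCd mice. Each allo-WT mouse exceeded all others, and the syngeneic and allo-MCd mice overlapped near the background. Cd27 showed the largest difference of any member between allo-WT and syngeneic mice, 2.10 ± 0.43 (adjusted p = 0.00259), and between allo-MCd and allo-WT mice it gave -2.12 ± 0.39 (adjusted p = 5.20e-04). Both stayed called under median scaling, at 1.84 ± 0.44 and -1.30 ± 0.39. The difference of -0.019 ± 0.39 between allo-MCd and syngeneic mice was not called (adjusted p = 0.965) and was 0.54 ± 0.39 under median scaling.

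Tnfrsf9, known as 4-1BB, is induced on activated T cells and has the kappaB matches in a promoter shown above. The 11 mice gave 14.96, 18.4 and 23.2 in the syngeneic, 48.2, 59.7 and 37.0 in the allo-WT, and 6.07, 12.1, 14.5, 7.98 and 12.7 in the allo-MCd mice. The allo-WT mice were all above the others, and no allo-MCd mouse was above its background. Tnfrsf9 reached the tested set through the 3 allo-WT mice and syngeneic mouse 3. It was lower in the allo-MCd than the allo-WT mice by a difference of -2.11 ± 0.33 (adjusted p = 1.86e-04) and higher in the allo-WT than the syngeneic mice by 1.31 ± 0.37 (adjusted p = 0.0138). Both held under median scaling (-1.32 ± 0.30 and 1.06 ± 0.34), but the second was not called without syngeneic mouse 1 (adjusted p = 0.0570). Against syngeneic mice the allo-MCd mice gave -0.81 ± 0.33 (adjusted p = 0.0696), and -0.26 ± 0.30 under median scaling.

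Tnfrsf14, the herpesvirus entry mediator, binds members of the lymphotoxin family. Normalized counts were 536, 397 and 445 in the syngeneic, 657, 854 and 807 in the allo-WT, and 157, 176, 205, 246 and 297 in the allo-MCd mice. As for Cd40, the 3 groups did not overlap, with allo-WT mice highest and allo-MCd mice lowest. The differences were -1.86 ± 0.23 between allo-MCd and allo-WT mice (adjusted p = 3.27e-05), -1.11 ± 0.23 between allo-MCd and syngeneic mice (adjusted p = 0.00344) and 0.75 ± 0.26 between allo-WT and syngeneic mice (adjusted p = 0.0351). Only the first was called under median scaling (-1.02 ± 0.20, against -0.52 ± 0.20 and 0.50 ± 0.23). The last was also lost without mouse 2 or 3 of the syngeneic group or allo-WT mouse 2 or 3 (adjusted p between 0.0684 and 0.1003).

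Fas is the death receptor of Fas ligand and was measured at 235, 211 and 259 in the syngeneic, 451, 346 and 333 in the allo-WT, and 91.9, 97.3, 136, 121 and 219 in the allo-MCd mice. The allo-WT mice were above all others, and the allo-MCd mice were below the syngeneic mice except for mouse 5. Fas was lower in the allo-MCd than the allo-WT mice by a difference of -1.55 ± 0.28 (adjusted p = 5.01e-04), and by -0.71 ± 0.21 under median scaling. It was also lower than in syngeneic mice (-0.88 ± 0.28, adjusted p = 0.0267), a call that was lost under median scaling (-0.30 ± 0.21) and without mouse 1 or 3 of the syngeneic group or allo-MCd mouse 1, 2 or 4 (adjusted p between 0.0512 and 0.0954). The difference of 0.67 ± 0.31 between allo-WT and syngeneic mice was not called (adjusted p = 0.0989, and 0.42 ± 0.23 under median scaling), and was called without allo-MCd mouse 5 (adjusted p = 0.0380), with an adjusted p up to 0.243 over the other left-out mice.

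Tnfrsf1b, the receptor without a death domain that is found mainly on leukocytes, was measured at 618, 396 and 505 in the syngeneic, 1022, 590.0 and 727 in the allo-WT, and 142, 160.4, 194, 169 and 218 in the allo-MCd mice. Every allo-MCd mouse was below every mouse of the other groups, which overlapped. Tnfrsf1b was lower in allo-MCd mice by a difference of -2.11 ± 0.24 from allo-WT mice (adjusted p = 1.52e-05) and -1.51 ± 0.24 from syngeneic mice (adjusted p = 0.00135). Both were still called under median scaling, at -1.27 ± 0.18 and -0.92 ± 0.18, but the methods' test, which compares the 3 groups on the deposited values, no longer called the second after Benjamini-Hochberg adjustment (adjusted p = 0.0871). The difference of 0.61 ± 0.27 between allo-WT and syngeneic mice was not called (adjusted p = 0.0795).

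Tnfrsf1a, the widely expressed death domain receptor of Tnf, had means of 3194 ± 173 (SD, n = 3) in the syngeneic group, 4357 ± 1111 (SD, n = 3) in the allo-WT group and 2300.4 ± 167 (SD, n = 5) in the allo-MCd group. It was lower in the allo-MCd than the allo-WT mice on the deposited scale (-0.89 ± 0.18, adjusted p = 9.50e-04) and near 0 under median scaling (-0.048 ± 0.17). The difference of -0.47 ± 0.18 from syngeneic mice was at the threshold (adjusted p = 0.0485), changed sign under median scaling (0.12 ± 0.17) and lost its call without any of 8 single mice (all but allo-WT mice 1 and 3 and allo-MCd mouse 5, adjusted p up to 0.138). Between allo-WT and syngeneic mice Tnfrsf1a gave 0.42 ± 0.20 (adjusted p = 0.102), or 0.16 ± 0.19 under median scaling. It was called without allo-WT mouse 3 (0.61, adjusted p = 0.0175) and was 0.24 without allo-WT mouse 1.

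Tnfrsf11a, known as RANK, the receptor that drives osteoclast and dendritic cell survival, was measured at 293, 275 and 276 in the syngeneic, 190.1, 234 and 211 in the allo-WT, and 142, 133, 133, 113 and 182 in the allo-MCd mice. Here the syngeneic mice were highest, the allo-WT mice lay between, and the allo-MCd mice were lowest, without overlap. Tnfrsf11a was lower in allo-MCd mice by a difference of -1.01 ± 0.21 from syngeneic mice (adjusted p = 0.00317) and -0.60 ± 0.21 from allo-WT mice (adjusted p = 0.0240), but under median scaling these were -0.42 ± 0.20 and 0.24 ± 0.20, the second with the sign turned and neither called. The call against allo-WT mice was lost without allo-WT mouse 2 or 3 or allo-MCd mouse 4 (adjusted p between 0.0503 and 0.0873). Between allo-WT and syngeneic mice it was called lower under median scaling (-0.66 ± 0.22) by limma, which did not call it on the deposited scale (-0.41 ± 0.23), where the methods' test did after Benjamini-Hochberg adjustment (adjusted p = 0.0408).

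Tnfrsf12a, the TWEAK receptor Fn14 of epithelium and fibroblasts, was measured at 727, 664 and 716 in the syngeneic, 1379, 1150.1 and 736 in the allo-WT, and 923, 1130.0, 839.9, 924 and 858 in the allo-MCd mice. All allo-MCd and allo-WT mice were above all syngeneic mice, with allo-WT mouse 3 just over the highest of these. It was not called by limma in any comparison on the deposited scale with all mice. Under median scaling Tnfrsf12a was called higher in the allo-MCd than the syngeneic mice (1.00 ± 0.23, adjusted p = 0.00937, against 0.40 ± 0.20) and than the allo-WT mice (0.66 ± 0.23, adjusted p = 0.0224, against -0.18 ± 0.20). Between allo-WT and syngeneic mice it gave 0.58 ± 0.23 (adjusted p = 0.0564), or 0.33 ± 0.26 under median scaling. It was called there without allo-WT mouse 3 (0.84, adjusted p = 0.00518) and was 0.39 without allo-WT mouse 1.

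Tnfrsf8, the activation marker CD30 of lymphocytes, was above background in 3 of the 11 mice and ranged from 8.26 to 37.0. It reached the tested set through the 3 allo-WT mice and allo-MCd mouse 4. It was called higher in the allo-WT than the syngeneic mice at the threshold (1.02 ± 0.39, adjusted p = 0.0499) and lower in the allo-MCd than the allo-WT mice (-0.98 ± 0.35, adjusted p = 0.0266), and neither was called under median scaling. The first call was lost when genes were not filtered on low values (adjusted p = 0.0526) and when any mouse but allo-MCd mouse 3 or 4 was left out (adjusted p up to 0.131), and leaving out allo-WT mouse 3 or allo-MCd mouse 1 or 3 ended the second (adjusted p up to 0.105). Tnfrsf4, known as OX40, a co-stimulatory receptor of activated T cells, ranged from 88.1 to 216 and was not called in any comparison by limma. Its largest difference was -0.61 ± 0.30 between allo-MCd and allo-WT mice (adjusted p = 0.0967), which was 0.23 ± 0.31 under median scaling.

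Of the 5 adaptors and inhibitors of apoptosis, none was called between allo-WT and syngeneic mice by limma or voom, and none reached an unadjusted p under 0.05 in limma. In allo-MCd mice Birc2, Birc3 and Traf1 were lower than in allo-WT mice and Birc2 and Birc3 lower than in syngeneic mice, but under median scaling only Birc3 stayed lower, against allo-WT mice. Birc3 encodes an inhibitor of apoptosis protein, a ubiquitin ligase of TNF receptor complexes that is itself an NF-kappaB target. It was measured at 691, 656 and 683 in the syngeneic, 882, 832 and 818 in the allo-WT, and 320.4, 295, 347, 351 and 450.1 in the allo-MCd mice. The 3 groups did not overlap, and the spread within the syngeneic and allo-WT groups was small. Birc3 was lower in allo-MCd mice by a difference of -1.27 ± 0.17 from allo-WT mice (adjusted p = 5.67e-05) and -0.95 ± 0.17 from syngeneic mice (adjusted p = 0.00167), which became -0.43 ± 0.15 and -0.36 ± 0.15 under median scaling. The difference of 0.32 ± 0.19 between allo-WT and syngeneic mice was not called by limma (adjusted p = 0.184), while the methods' test called it higher after Benjamini-Hochberg adjustment (adjusted p = 0.0258).

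Birc2, the closely related neighbour of Birc3, had means of 936 ± 152 (SD, n = 3), 896 ± 66.5 (SD, n = 3) and 658 ± 70.9 (SD, n = 5) in syngeneic, allo-WT and allo-MCd mice. Its differences of -0.45 ± 0.17 from allo-WT and -0.50 ± 0.17 from syngeneic mice had the opposite sign under median scaling (0.40 ± 0.17 and 0.090 ± 0.17). The call against allo-WT mice was lost without allo-WT mouse 2 or 3 or allo-MCd mouse 1, 2, 3 or 4 (adjusted p up to 0.0968), and that against syngeneic mice without syngeneic mouse 2 or 3 or the same allo-MCd mice (adjusted p up to 0.115).

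Among the TRAF adaptors, which couple the receptors to kinases, Traf1 was lower in the allo-MCd than the allo-WT mice by a difference of -0.83 ± 0.27 (adjusted p = 0.0175), which was 0.0060 ± 0.23 under median scaling and not called without allo-WT mouse 2 (adjusted p = 0.0529). Against syngeneic mice Traf1 gave -0.61 ± 0.27 (adjusted p = 0.0808), or -0.026 ± 0.23 under median scaling. It was called lower there without syngeneic mouse 2 or allo-MCd mouse 5 (adjusted p = 0.0407 to 0.0484), and ranged from -0.84 to -0.42 over single left-out mice. Traf2, the main adaptor of Tnfrsf1b, gave 0.074 ± 0.18 between allo-MCd and allo-WT mice (adjusted p = 0.740) and under median scaling was called higher there (0.92 ± 0.20, adjusted p = 0.00170). Traf6, which serves Cd40 as well as Toll-like receptors, missed the threshold between allo-MCd and allo-WT mice with a difference of -0.45 ± 0.18 (adjusted p = 0.05001), gave 0.40 ± 0.20 under median scaling and was called without syngeneic mouse 1 or 2, allo-WT mouse 3 or allo-MCd mouse 5 (adjusted p between 0.0259 and 0.0489), with a range of -0.57 to -0.37 over single left-out mice.

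Of the genes named for induction by TNF, Tnfaip6 encodes TSG-6, a hyaluronan-binding protein secreted by inflamed fibroblasts and myeloid cells. Its normalized counts were 1721, 956 and 1677 in the syngeneic, 3301, 1447 and 5423 in the allo-WT, and 755, 900.1, 399.8, 471 and 1061 in the allo-MCd mice. The allo-WT mice were the most spread, from 1447 to 5423, and mouse 2, the lowest, lay within the syngeneic range but above all allo-MCd mice. Tnfaip6 was lower in the allo-MCd than the allo-WT mice by a difference of -2.14 ± 0.43 (adjusted p = 0.00100), and by -1.30 ± 0.41 under median scaling. Against syngeneic mice it gave 1.08 ± 0.48 in allo-WT (adjusted p = 0.0835) and -1.06 ± 0.43 in allo-MCd mice (adjusted p = 0.0639), and 0.82 ± 0.46 and -0.47 ± 0.41 under median scaling. The first was called without allo-WT mouse 2 (1.59, adjusted p = 0.0154) and was 0.64 without allo-WT mouse 3. The second was called without syngeneic mouse 2, allo-WT mouse 2 or 3 or allo-MCd mouse 5 (adjusted p between 0.0303 and 0.0490), and otherwise had an adjusted p up to 0.192.

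Tnfaip3 encodes A20, the ubiquitin-editing brake on NF-kappaB, and had matches at 2 places in the promoter shown above. Its means were 1135 ± 328 (SD, n = 3) in the syngeneic group, 1003 ± 215 (SD, n = 3) in the allo-WT group and 690.0 ± 140.1 (SD, n = 5) in the allo-MCd group. It was lower in the allo-MCd than the syngeneic mice (-0.69 ± 0.24, adjusted p = 0.0395, and -0.10 ± 0.22 under median scaling), and the call was lost without mouse 1 or 3 of the syngeneic group or allo-MCd mouse 1, 2, 3 or 4 (adjusted p up to 0.163). Against allo-WT mice it gave -0.54 ± 0.24, or 0.31 ± 0.22 under median scaling, and was called lower without syngeneic mouse 2, allo-WT mouse 1 or allo-MCd mouse 5 (adjusted p between 0.0373 and 0.0453), with a range of -0.72 to -0.41 over single left-out mice.

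Tnfaip8, a cytosolic protein linked to cell survival, was lower in the allo-MCd than the syngeneic mice on the deposited scale (-0.43 ± 0.16, adjusted p = 0.0452) and had the opposite sign under median scaling (0.16 ± 0.17). Without mouse 2 or 3 of the syngeneic group or allo-MCd mouse 1, 2, 3 or 4 it was not called (adjusted p up to 0.167). Between allo-WT and syngeneic mice it was called lower under median scaling (-0.66 ± 0.20) by limma, which did not call it on the deposited scale (-0.41 ± 0.17), where the methods' test called it before Benjamini-Hochberg adjustment and not after it. Between allo-MCd and allo-WT mice it was called higher under median scaling (0.83 ± 0.17) and not on the deposited scale (-0.017 ± 0.16).

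**Figure D3:**
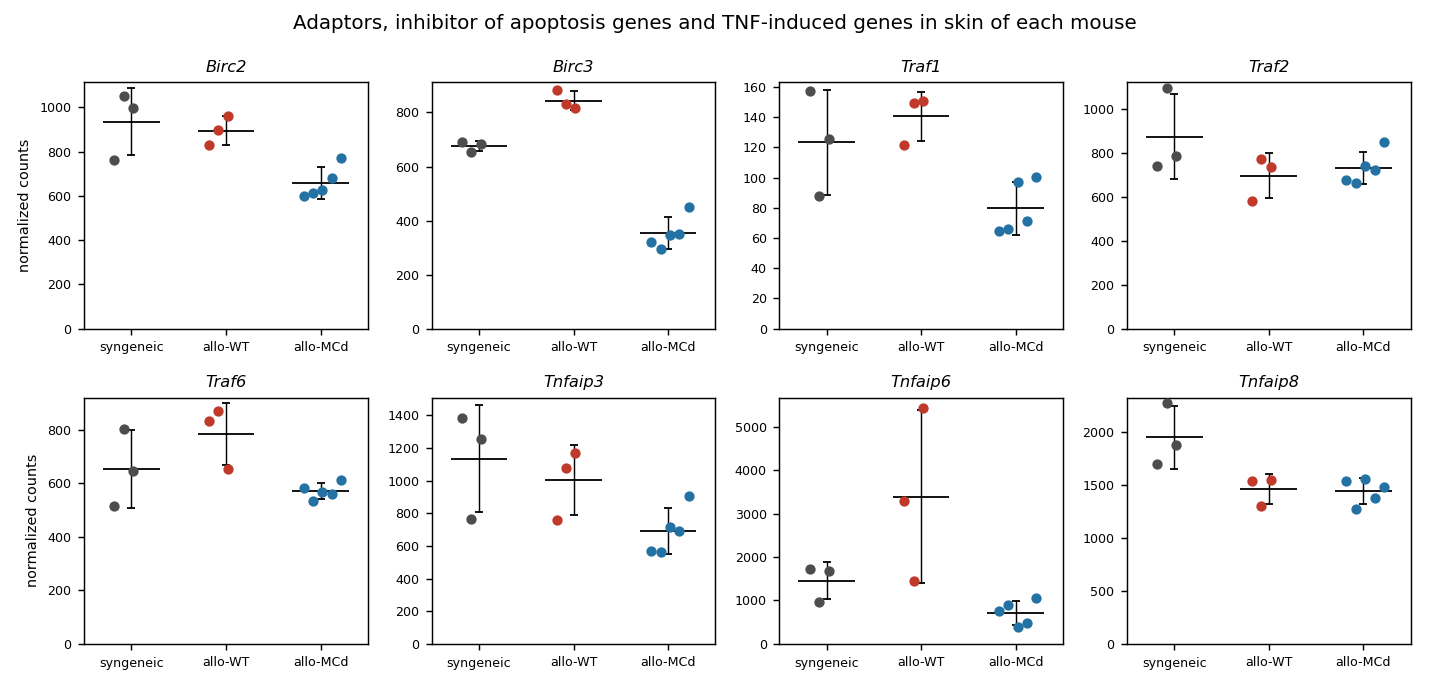
Normalized counts of 5 adaptor and inhibitor of apoptosis genes and 3 TNF-induced genes in the skin of each mouse (points), with the group mean (line) and SD (bar). For Birc3 the 3 groups are apart, with every allo-MCd mouse at or below 450.1 and every allo-WT mouse at or above 818, while for Traf2 they overlap.

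A ratio of 2 genes within a mouse does not depend on how that mouse was scaled. The ratio was taken for 3 related pairs, which were chosen after their values were seen, so the ratios are given as a description with no test. The ratio of Tnfrsf1b to Tnfrsf1a was 0.182, 0.129 and 0.162 in the syngeneic, 0.187, 0.136 and 0.224 in the allo-WT, and 0.0639, 0.0706, 0.0815, 0.0809 and 0.0858 in the allo-MCd mice. All allo-MCd mice were below all other mice, and the other groups overlapped. On the log2 scale the ratio differed by -1.22 between allo-MCd and allo-WT mice and by -1.03 between allo-MCd and syngeneic mice, and by 0.19 between allo-WT and syngeneic mice, where single left-out mice gave 0.027 to 0.39.

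The ratio of Birc3 to Birc2 behaved likewise and was 0.906, 0.625 and 0.685 in the syngeneic, 1.06, 0.929 and 0.850 in the allo-WT, and 0.536, 0.481, 0.553, 0.517 and 0.583 in the allo-MCd mice. No allo-MCd mouse reached the lowest mouse of either other group. Its log2 differences were -0.82 from allo-WT and -0.45 from syngeneic mice, the second -0.30 without syngeneic mouse 1, and 0.37 between allo-WT and syngeneic mice, where single left-out mice gave 0.26 to 0.53.

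The ratio of Traf1 to Traf2 was 0.212, 0.0799 and 0.159 in the syngeneic, 0.209, 0.193 and 0.205 in the allo-WT, and 0.0951, 0.0990, 0.131, 0.0983 and 0.118 in the allo-MCd mice. It was lower in all allo-MCd than in all allo-WT mice, with a log2 difference of -0.90. It overlapped the widely spread syngeneic mice, with -0.37 from them, which was -0.77 without syngeneic mouse 2 and -0.068 without syngeneic mouse 1. A ratio does not show which gene of a pair changed.

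**Figure D4:**
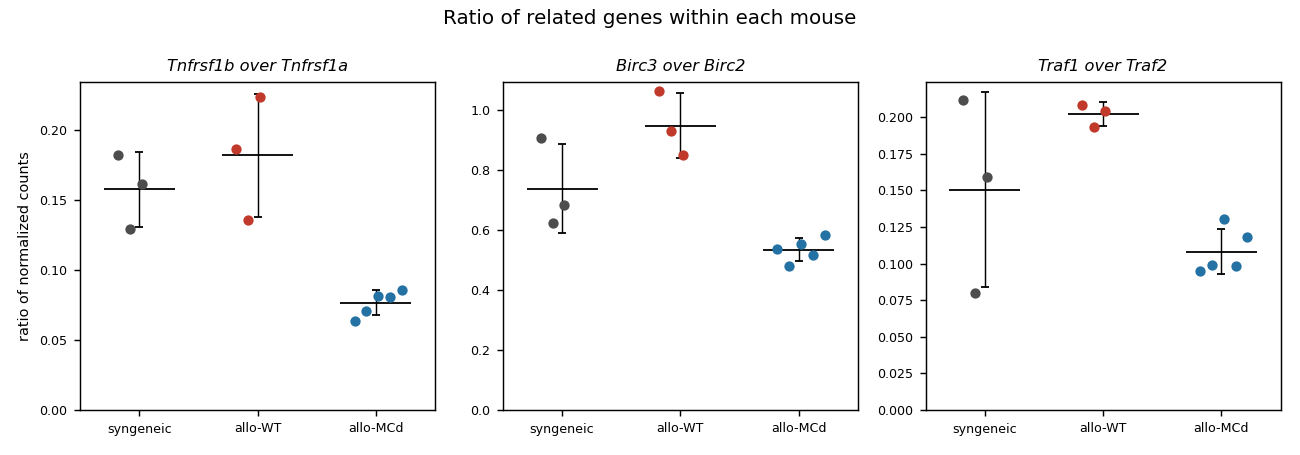
Ratio of the normalized counts of related genes in each mouse (points), with the group mean (line) and SD (bar), for Tnfrsf1b over Tnfrsf1a, Birc3 over Birc2 and Traf1 over Traf2. The 5 allo-MCd mice lie below all others in the first pair of panels, and below all allo-WT mice in the third.

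Downstream of the receptors, 19 of 54 listed genes of NF-kappaB and death signalling were on the panel, and all were tested. Between allo-WT and syngeneic mice 4 were higher (21.1%, against 28.3% of all genes), Casp1, Ikbke and Vcam1 among them, and none was lower by limma or voom or at an unadjusted p under 0.05, with a list median of 0.24 against 0.21 over all genes. In allo-MCd mice 12 were lower than in allo-WT mice (63.2%, against 50% of all genes) and 1, Jun, was higher, with a median of -0.64 against -0.72. Compared with syngeneic mice 7 were lower in allo-MCd mice (36.8%, against 36.9%) and none was higher by limma or voom or at an unadjusted p under 0.05, with a median of -0.49 against -0.59. Under median scaling the 3 comparisons gave 2 higher and 4 lower (10.5% and 21.1%, against 24.3% and 27.3% of all genes), 6 higher and 5 lower (31.6% and 26.3%, against 35.6% and 30.3%), and 1 higher and none lower (5.26%, against 13.9%, and none at an unadjusted p under 0.05, against 13.5% of all genes called). The count of 4 was 2 without syngeneic mouse 3 or allo-WT mouse 2. The count of 7 was 1 without syngeneic mouse 1, 2 without syngeneic mouse 3 or allo-MCd mouse 4, 3 without allo-MCd mouse 1 or 2, and 12 without allo-MCd mouse 5.

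The largest change was that of Vcam1, the endothelial adhesion molecule induced by Tnf. The 11 mice gave 119.7, 92.0 and 99.2 in the syngeneic, 406, 885 and 381 in the allo-WT, and 38.0, 67.7, 59.9, 73.4 and 82.9 in the allo-MCd mice. Each allo-WT mouse was far above all others, and the syngeneic mice were above the allo-MCd mice. Vcam1 differed by 2.31 ± 0.37 between allo-WT and syngeneic mice (adjusted p = 6.01e-04) and by -3.03 ± 0.33 between allo-MCd and allo-WT mice (adjusted p = 1.23e-05), and by 2.06 ± 0.36 and -2.19 ± 0.32 under median scaling. The 3 endothelial markers on the panel summed to between 1112 and 1727 in syngeneic, 522 and 613 in allo-WT and 455 and 1109.5 in allo-MCd mice, and their part in the difference was not tested.

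Casp1, the inflammatory caspase, was likewise highest in the allo-WT mice. It gave 1.41 ± 0.20 between allo-WT and syngeneic mice (adjusted p = 3.33e-04) and -1.79 ± 0.18 between allo-MCd and allo-WT mice (adjusted p = 5.54e-06). Both stayed called under median scaling (1.15 ± 0.16 and -0.95 ± 0.14). Between allo-MCd and syngeneic mice, which overlapped, it was not called (-0.39 ± 0.18, adjusted p = 0.0913, and 0.20 ± 0.14 under median scaling). Ikbke, an IkappaB kinase relative induced by NF-kappaB, gave 0.86 ± 0.29 between allo-WT and syngeneic mice and -1.57 ± 0.26 between allo-MCd and allo-WT mice (adjusted p = 0.0303 and 2.45e-04), and 0.61 ± 0.27 and -0.73 ± 0.24 under median scaling. The first was lost under that scaling and without mouse 1 or 3 of the syngeneic group or allo-WT mouse 1 or 2 (adjusted p between 0.0599 and 0.135).

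Between allo-MCd and syngeneic mice the largest called differences were those of the NF-kappaB inhibitors Nfkbie (-0.95 ± 0.26, adjusted p = 0.0141) and Nfkbia (-0.74 ± 0.21, adjusted p = 0.0143), with Ikbke next (-0.71 ± 0.26, adjusted p = 0.0452). None of these was called under median scaling (-0.36 ± 0.21, -0.15 ± 0.19 and -0.12 ± 0.24). Nfkbie lost its call without syngeneic mouse 1 (adjusted p = 0.0743), Nfkbia without syngeneic mouse 1 or 3 (adjusted p up to 0.0712) and Ikbke without any of 8 single mice (all but syngeneic mouse 3, allo-WT mouse 3 and allo-MCd mouse 5, adjusted p up to 0.202, and a difference of -0.44 without syngeneic mouse 2). Jun, a component of AP-1, was higher in the allo-MCd than the allo-WT mice by 0.78 ± 0.25 (adjusted p = 0.0190) and by 1.62 ± 0.24 under median scaling, and the call on the deposited scale was lost without allo-WT mouse 1 (0.53, adjusted p = 0.110), with a replicate block (adjusted p = 0.0856) and by the methods' test after Benjamini-Hochberg adjustment (adjusted p = 0.120).

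**Figure D5:**
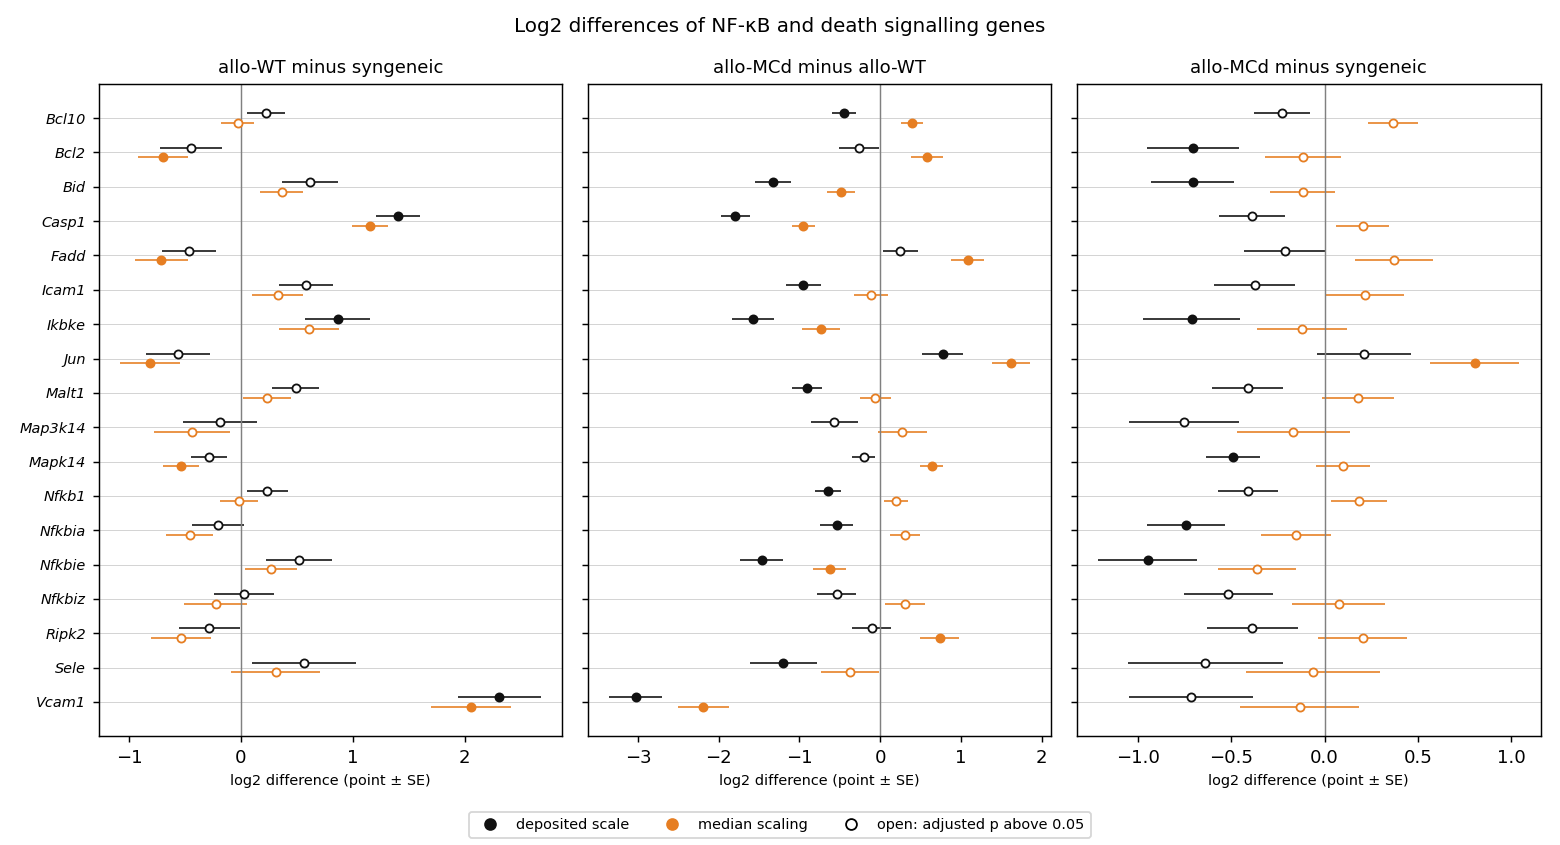
Log2 difference of 18 of the 19 NF-kappaB and death signalling genes, with its SE, in the 3 comparisons, on the deposited scale (black) and under median scaling (orange). Filled points have an adjusted p of at most 0.05. Vcam1 and Casp1 are filled on both scales between allo-WT and syngeneic mice and between allo-MCd and allo-WT mice.

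The calls differed in how far they rested on single mice. Of the 17 members lower in the allo-MCd than the allo-WT mice, 12 were called whichever of the 11 mice was left out (Birc3, Cd27, Cd40, Fas, Ltb, Tnf, Tnfaip6, Tnfrsf14, Tnfrsf1a, Tnfrsf1b, Tnfrsf9 and Tnfsf10). Of these 12, Tnfrsf9 passed the filter on low values only with the allo-WT mice, in which it was high. Calls also held whichever mouse was left out for 3 of the 7 members higher in the allo-WT than the syngeneic mice (Cd27, Cd40 and Ltb) and for 5 of the 10 lower in the allo-MCd than the syngeneic mice (Birc3, Cd40, Tnfrsf11a, Tnfrsf14 and Tnfrsf1b). Calls also differed by tool. After Benjamini-Hochberg adjustment the methods' test called 5 of the 7 members higher in the allo-WT than the syngeneic mice (not Tnfrsf8 and Tnfsf10), 14 of the 17 lower in the allo-MCd than the allo-WT mice (not Birc2, Tnfsf10 and Tnfsf9) and 3 of the 10 lower in the allo-MCd than the syngeneic mice (Birc3, Tnfrsf11a and Tnfrsf14). The comparisons share mice, the labels do not give the transplant experiment of each, and p-values measure only the spread between these mice.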

How the data were processed

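Skin RNA of 11 mice was counted on the NanoString Myeloid Innate Immunity panel. The deposited values are a signal, namely counts that the authors normalized in nSolver by 1 factor per mouse (its version, housekeeping genes and background treatment are not given in the sources used here), and the mice were grouped by the sample labels. Dividing each mouse by 1 factor (0.759 to 2.54) returned whole numbers for 99.9% to 100% of its genes, within a tolerance of 0.011, which gave totals of 831632 to 1460260 counts, and precision is limited by the number of mice. A gene was tested if at least 20 in at least 3 mice, and 20 housekeeping genes were left out, leaving 696. limma 3.58.1 (R 4.3.3), with a trend and all 3 groups in 1 fit, was applied to log2(value + 1), with Benjamini-Hochberg adjustment over all genes tested. Lta was tested by exact two-sided permutation in Python 3.11.15 with scipy 1.17.1. A median equal in all mice, quantile normalization, other filters and pseudocounts, the methods' test, a replicate block, voom on the recovered counts and leaving out each mouse were tried as alternatives. Scripts were tested on simulated data.

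Values in every mouse are given for Tnf, Lta, Ltb, Fas, Cd40, Cd40lg, Cd27 and Cd70 and for the 5 members with the largest called difference in each comparison, and of the NF-kappaB and death signalling list the 3 largest called are named. Tnfrsf12a and Jun were added after their values were seen, as were the ratios. The members and lists were chosen with earlier results of these data known. Promoters were read from RefSeq, and no genome build is given in the sources used here for the probes. 1 gene of the signalling list is counted but not reported here by name.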

Additional observations from a re-analysis of the deposited data

Results flagged for a closer look

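Tnfrsf12a in allo-MCd mouse 2 stood apart from the other mice of its group, at a normalized count of 1130.05 against 839.88 to 923.65, a gap of 0.711 of the group's whole range. Of 27 member genes examined in the 5 allo-MCd mice it was the only one so marked, and chance marks about 1 in 20 such groups.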

How the results depend on the processing

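Under median scaling and quantile normalization, members higher in the allo-WT than the syngeneic mice were 4 and 3 (7 as deposited) and lower 2 and 3 (0), members higher in the allo-MCd than the allo-WT mice 3 and 2 (0) and lower 10 and 9 (17), and members higher in the allo-MCd than the syngeneic mice 1 and 1 (0) and lower 1 and 1 (10). The NF-kappaB and death signalling genes called were 8 under quantile normalization (4) between allo-WT and syngeneic mice, 8 (13) between allo-MCd and allo-WT mice, and 1 under both scalings (7) between allo-MCd and syngeneic mice. The methods' test called 2 members lower and 10 signalling genes in allo-WT against syngeneic mice, and after Benjamini-Hochberg adjustment 1 member lower there, and 3 members lower and 1 signalling gene in allo-MCd against syngeneic mice. Leaving out single mice gave 4 to 8 members higher and 0 to 0 lower, and 2 to 5 signalling genes, in allo-WT against syngeneic mice, 14 to 19 members lower and 9 to 14 signalling genes in allo-MCd against allo-WT mice, and 5 to 15 and 1 to 12 in allo-MCd against syngeneic mice.

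The sign of a member's difference turned under median scaling for Traf1 (0.0060), Tnfsf9 (0.029), Cd70 (0.068), Tnfrsf4 (0.23), Tnfrsf11a (0.24), Tnfaip3 (0.31), Birc2 (0.40), Traf6 (0.40), Tnfrsf12a (0.66) and Tnfaip8 (0.83) between allo-MCd and allo-WT mice, for Birc2 (0.090), Tnfrsf1a (0.12), Tnfaip8 (0.16), Ltb (0.22), Tnfsf10 (0.24), Tnfrsf4 (0.34), Traf2 (0.35), Traf6 (0.42), Tnfsf4 (0.49) and Cd27 (0.54) between allo-MCd and syngeneic mice, and for Traf1 (-0.032) and Tnfsf9 (-0.20) between allo-WT and syngeneic mice. It turned under quantile normalization for Tnfrsf8 (0.072), Traf1 (0.17), Tnfaip3 (0.18), Tnfsf4 (0.19), Tnfsf9 (0.24), Cd40lg (0.28), Birc2 (0.29), Traf6 (0.31), Tnfrsf11a (0.41), Cd70 (0.42), Tnfrsf4 (0.42), Tnfrsf12a (0.54) and Tnfaip8 (0.74) in the first of these comparisons, for Tnfrsf1a (0.054), Tnfaip8 (0.071), Traf2 (0.20), Ltb (0.25), Tnfsf10 (0.27), Tnfrsf4 (0.33), Traf6 (0.33), Tnfsf4 (0.54) and Cd27 (0.59) in the second, and for Tnfrsf4 (-0.091), Traf1 (-0.20) and Tnfsf9 (-0.41) in the last. Of the signalling genes named in the report, Nfkbia turned between allo-MCd and allo-WT mice (0.31 under median scaling and 0.18 under quantile normalization) and Ikbke between allo-MCd and syngeneic mice (0.037 under quantile normalization). A pseudocount of 20 turned Cd27 (0.0024) and the replicate block Tnfrsf8 (-0.25) between allo-MCd and syngeneic mice.

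Leaving out single mice left both signs among the uncalled differences of Tnfaip8 (-0.099 to 0.028), Traf2 (-0.050 to 0.15) and Tnfrsf12a (-0.44 to 0.015) between allo-MCd and allo-WT mice, of Cd27 (-0.20 to 0.17), Tnfrsf4 (-0.48 to 0.072), Tnfrsf8 (-0.11 to 0.21) and Tnfsf4 (-0.47 to 0.067) between allo-MCd and syngeneic mice, and of Birc2 (-0.19 to 0.036), Cd40lg (-0.87 to 0.19), Cd70 (-0.35 to 0.19), Tnfaip3 (-0.42 to 0.031), Tnfsf9 (-0.15 to 0.33) and Traf1 (-0.0065 to 0.41) between allo-WT and syngeneic mice. For Tnfsf4 the range is over the 8 mice whose leaving out kept it in the fit. The cause of these changes of sign was not tested.

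Deviations of same-numbered mice correlated between -0.11 and 0.21. Differently numbered mice were not compared, so this does not settle whether the mouse numbers pair the mice. With the number as a replicate block 6 members were higher in the allo-WT than the syngeneic mice, 16 lower in the allo-MCd than the allo-WT mice and 8 lower in the allo-MCd than the syngeneic mice. Without allo-WT mouse 1, which had the fewest counts, these were 6, 17 and 10. A count-model test of the recovered counts was planned and not run, and voom, chosen after seeing the data, took its place. The depth limits the low genes: Cd40lg, Cd70, Lta, Tnfrsf8, Tnfrsf9 and Tnfsf4 were above background in fewer than 6 mice.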
